A study of Mus musculus with 4 samples.

Results

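Microtubules are hollow polymers of alpha- and beta-tubulin dimers that carry cargo through cells, and long stable bundles of them fill axons and dendrites. Gamma-tubulin starts their growth, stathmins bind free dimers, and microtubule-associated proteins (MAPs) coat and stabilise the polymer. Intermediate filaments form a separate network whose subunits differ by cell type, with neurofilament proteins known from neurons, glial fibrillary acidic protein from astrocytes and vimentin from mesenchymal cells, vascular endothelium included.

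Genes of these families were taken by symbol from 1 table of 46072 genes by a rule on names that used no measured value. The choice was made with earlier results of these data known. For MAPs and intermediate filaments the rule lists chosen symbols, so it does not hold every gene of those families. The 42 genes comprise 8 alpha-tubulins, 8 beta-tubulins, 4 gamma-, delta- or epsilon-tubulins, 4 stathmins, 10 MAPs or MAP1 light chain 3 genes and 8 intermediate filament genes. Of these, 39 were above 0 in at least 1 library, and Tuba3a, Tuba3b and Tubal3 were listed at 0 in all 4. The 4 poly(A) RNA-seq libraries were made from brain vasculature of wild-type mice with no treatment, and their labels name endothelial cells from laser capture, a method that cuts cells out of a section. The series title describes perfusion-fixed brain and selection by immunolabelling, and no strain, age or sex was given in the sources at hand. With 1 group of replicates 1 to 4, genes were compared with a fixed level or with other genes of the same library. Whether each library was a separate animal is not labelled, so p-values reflect the spread of these 4 samples alone, possibly technical.

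The authors gave FPKM, which is fragment number per transcript length and per mapped total, summing to 448678 to 482882 in a library. Since depth is unknown, counting errors cannot be stated. The labelled cell type was checked first. Of 17 pan-endothelial markers, 13 lay above 1 FPKM (76.5%, against 47.7% of 25206 genes tested) and 1 below (against 40.1%), none was listed at 0, and their median was 4.29 ± 0.541 FPKM (SD, n = 4). Endothelial marker means ran from 0.368 FPKM for Erg to 68.2 for Ly6c1. The other marker lists had higher medians. All 11 pan-neuronal markers lay above 1 FPKM, with a median of 163 ± 10.1 FPKM and a sum of 2666 to 3235 FPKM per library, against a sum of 233 to 299 FPKM for the endothelial markers. Astrocyte markers had a median of 60.9 ± 10.4 FPKM, oligodendrocyte markers 89.0 ± 6.47, microglial markers 29.6 ± 4.02, mural cell markers 11.99 ± 1.67, choroid plexus and ependymal markers 24.6 ± 4.88 and erythroid markers 378 ± 87.4. By sum, over lists of unequal size, mural cell markers (172 ± 17.7 FPKM) lay below the endothelial ones (265 ± 27.5). Microglial markers (264 ± 41.7) lay near the endothelial sum, and the remaining lists lay higher. No marker of these lists was listed at 0. In bulk samples, fewer cells of a type and less RNA per cell cannot be told apart, and the part that neuronal and glial RNA has in the values below was not tested.

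**Figure D1:**
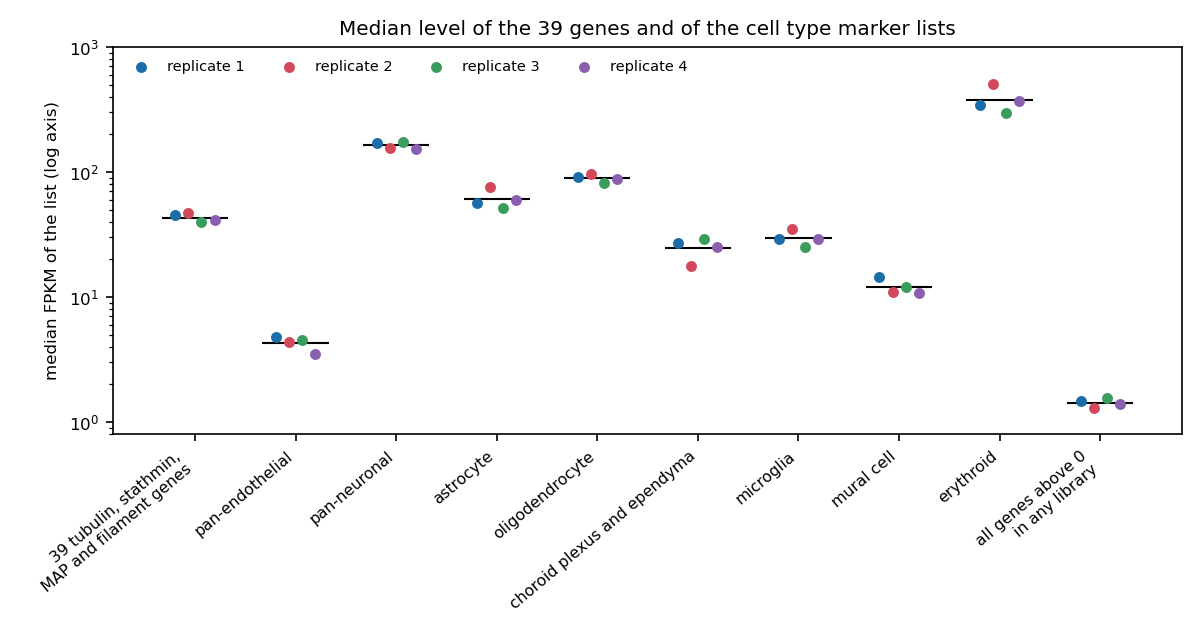
Median FPKM (log axis) of the 39 tubulin, stathmin, MAP and filament genes, of 8 cell type marker lists and of all genes above 0 in any library, with 1 point per library and a line at the mean of 4. The 39 genes, at 43.2 ± 3.48 FPKM, sit above the pan-endothelial median of 4.29 and below the pan-neuronal median of 163.

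Tubulins of one family are alike over most of their length, and the proteins are known to differ most in the acidic tail that projects from the microtubule surface, which the last coding bases encode. The closing 60 coding bases, stop codon included, are shown for 9 of the tubulins above 1 FPKM, read from GENCODE M21 transcripts (GRCm38). Capitals mark the codon before the stop. In alpha-tubulin that codon often encodes the tyrosine that carboxypeptidases remove and tubulin tyrosine ligase restores.
Tuba1c (chr15:99037950-99038009, plus strand): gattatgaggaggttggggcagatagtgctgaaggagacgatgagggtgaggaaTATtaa
Tuba4a (chr1:75215622-75215681, minus strand): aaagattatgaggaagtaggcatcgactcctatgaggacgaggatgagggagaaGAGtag
Tuba8 (chr6:121226020-121226079, plus strand): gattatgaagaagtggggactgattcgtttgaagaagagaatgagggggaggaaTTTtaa
Tubb2a (chr13:34074468-34074527, minus strand): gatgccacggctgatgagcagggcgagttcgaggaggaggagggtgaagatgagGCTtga
Tubb2b (chr13:34127471-34127530, minus strand): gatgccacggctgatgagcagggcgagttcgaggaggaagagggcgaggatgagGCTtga
Tubb3 (chr8:123421623-123421682, plus strand): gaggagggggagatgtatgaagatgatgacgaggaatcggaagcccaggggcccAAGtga
Tubb4a (chr17:57080690-57080749, minus strand): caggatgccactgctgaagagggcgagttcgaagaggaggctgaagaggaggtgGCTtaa
Tubb4b (chr2:25222308-25222367, minus strand): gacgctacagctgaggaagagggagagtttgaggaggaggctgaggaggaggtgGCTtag
Tubb5 (chr17:35834982-35835041, minus strand): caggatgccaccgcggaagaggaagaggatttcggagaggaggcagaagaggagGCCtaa
Each stretch shown lies within 1 exon and holds 6 to 10 GAA or GAG codons, the codons of glutamate, among the 19 before the stop. Tubb2a and Tubb2b are alike at 57 of these 60 bases and at 96.5% of their aligned coding sequence, and Tuba1a and Tuba1b at 98.3% of theirs. Tuba1c matched Tuba1b at 97.9% over the coding sequence. The remaining pairs of beta-tubulins matched at 73.5% to 85.9%. The sources used here do not state whether reads matching several genes were shared or dropped, so the values within the near-identical pairs are uncertain.

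**Figure D2:**
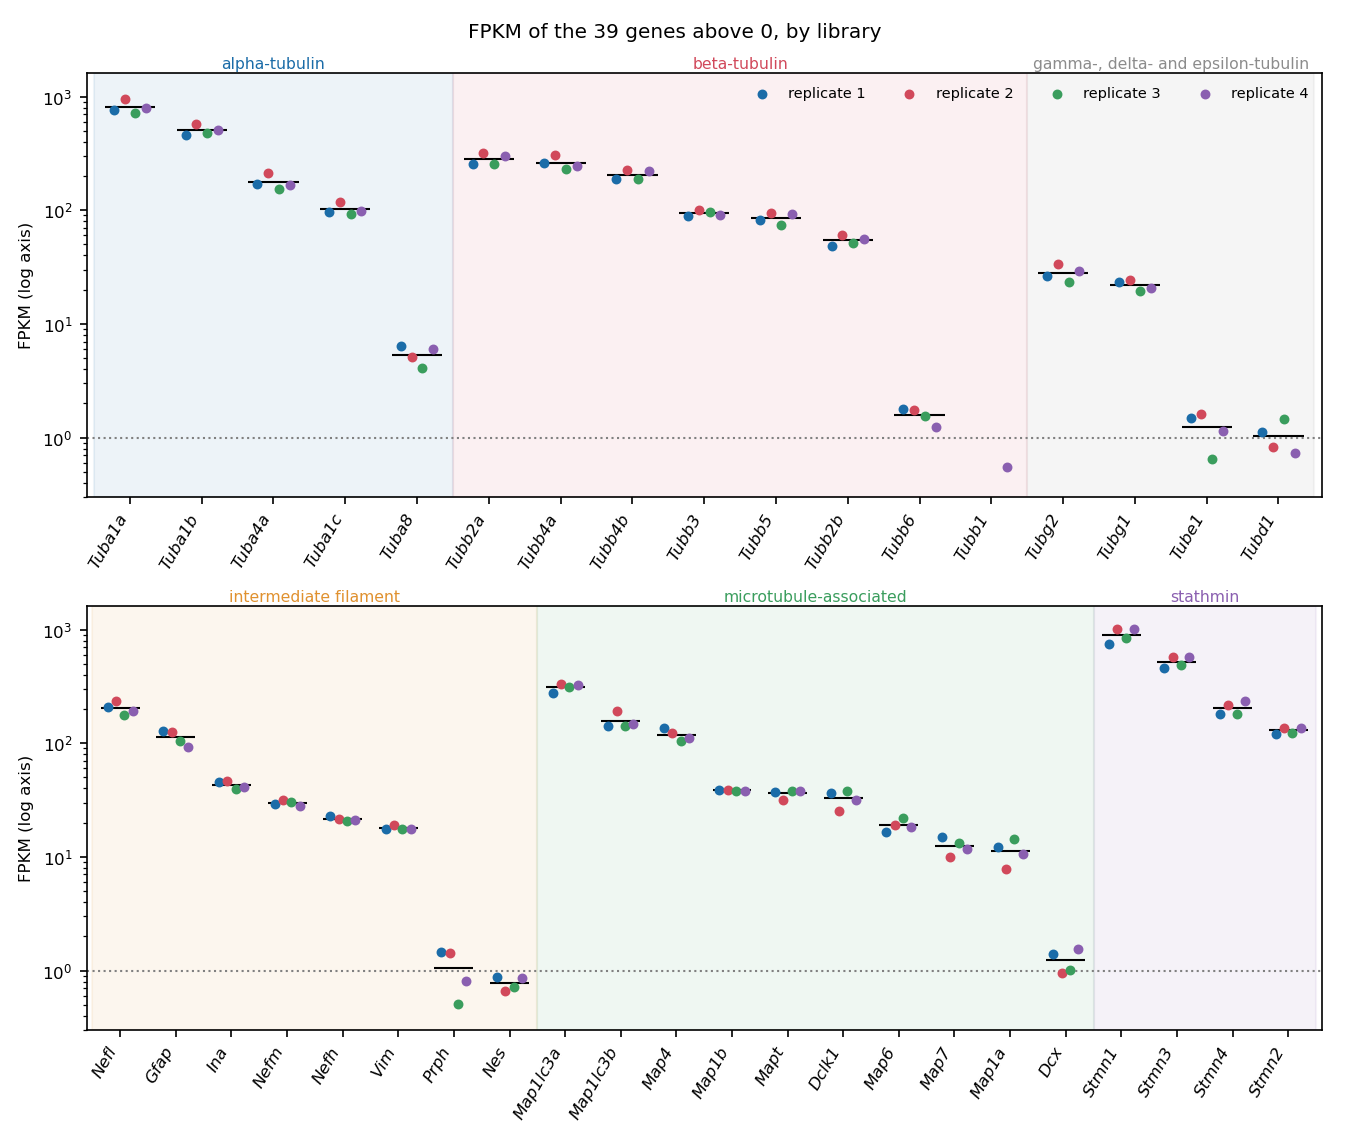
FPKM (log axis) of the 39 genes above 0 in each of 4 libraries, grouped by family, with lines at the means and a dotted line at 1 FPKM. Tuba1a and Stmn1 are highest at 810 and 899 FPKM on average, and Tubb1 is drawn in replicate 4 only because it is listed at 0 in the other libraries.

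Alpha-tubulin transcripts came mostly from 2 genes. Tuba1a, the main alpha-tubulin of the developing brain, measured 763.7, 957.4, 720.6 and 800.1 FPKM in replicates 1 to 4, a mean of 810 ± 103 (SD, n = 4) that ranked 49 among all genes of the table. Tuba1b, an alpha-tubulin found in most cells, measured 459.9, 569.4, 477.8 and 508.1 FPKM, or 504 ± 48.0. Replicate 2 was the highest library for both genes, and the lowest Tuba1a value exceeded the highest Tuba1b value. Tuba4a, which lacks the closing tyrosine codon, measured 169.7, 211.1, 154.4 and 167.5 FPKM, or 176 ± 24.5. Tuba1c measured 102 ± 11.7 FPKM, and Tuba8 measured 6.38, 5.09, 4.07 and 5.97 FPKM.

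Shares of the 4 highest alpha-tubulins varied little between libraries. Tuba1a supplied 50.7% ± 0.742 of summed alpha-tubulin FPKM (SD, n = 4), Tuba1b 31.6% ± 1.14, Tuba4a 11.0% ± 0.413, Tuba1c 6.39% ± 0.0915 and Tuba8 0.340% ± 0.0749. The gene order was the same in all 4 libraries, and Tuba1a was 7.93 ± 0.166 times Tuba1c. Genes whose last codon encodes tyrosine (Tuba1a, Tuba1b and Tuba1c, with Tuba3a and Tuba3b at 0) supplied 88.7% ± 0.430 of alpha-tubulin FPKM. Tuba4a ends in GAG, the glutamate that stays when tyrosine is removed, and Tuba8 in TTT, a phenylalanine codon.

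Processed copies of these genes may share their reads. At least 95% identity over 50% or more of the shorter transcript joined 5 processed pseudogenes that were in the table to Tuba1a, Tuba1b and Tuba1c. Gm17383 was listed at 56.9 ± 10.2 FPKM (SD, n = 4), Gm14150 at 36.0 ± 5.58, and Gm5620, Gm6682 and Gm3756 at 8.17 ± 1.20, 7.10 ± 2.61 and 4.68 ± 0.299. Together the 5 copies reached 113 ± 19.8 FPKM, 7.94% ± 0.474 of what the 3 parent genes held. Adding them to the alpha family raised the share of tyrosine-ending genes to 89.4%. Tuba4a has another source of doubt, since 1379 of its 3701 exonic bases overlap Stk16 on the opposite strand, itself at 28.8 FPKM, and without a stated strand setting their reads cannot be told apart.

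Among beta-tubulins, 3 genes shared the lead and a group of lower ones followed. Tubb2a, a beta-tubulin abundant in neurons, measured 252.8, 320.1, 257.2 and 297.8 FPKM in replicates 1 to 4. Tubb4a, known from myelinating oligodendrocytes and neurons, measured 260.6, 306.9, 231.2 and 245.4 FPKM. These genes overlapped, with Tubb2a higher in 3 libraries and Tubb4a in replicate 1 (exact 2-sided sign-flip p = 0.25). Tubb4b, also found in many tissues and in cilia, measured 189.2, 224.7, 188.4 and 220.0 FPKM and was below Tubb4a in each library.

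Tubb3, the class III beta-tubulin widely used to mark neurons, measured 89.7, 100.7, 95.8 and 91.7 FPKM. Tubb5, a beta-tubulin expressed in most tissues, measured 81.9, 93.9, 74.8 and 93.0 FPKM. Their ratio was 1.11 ± 0.125 (SD, n = 4), and Tubb3 was the higher of them in 3 of 4 libraries (exact sign-flip p = 0.25). Tubb2b, active in migrating neurons of the developing cortex, measured 48.4, 61.0, 51.3 and 56.1 FPKM, so Tubb2a was 5.20 ± 0.128 times as high. The coefficients of variation of the 2 genes were 11.5% and 10.2%, and their ratio stayed between 5.01 and 5.31 in all 4 libraries.

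Beta-tubulin genes known from other cells were low. Tubb6, a beta-tubulin of many non-neuronal tissues, measured 1.78, 1.76, 1.55 and 1.25 FPKM. Tubb1, the beta-tubulin of platelets and their precursors, was listed at 0 in replicates 1 to 3 and at 0.556 FPKM in replicate 4. In shares of summed beta-tubulin FPKM, Tubb2a held 28.6% ± 0.941, Tubb4a 26.5% ± 1.76, Tubb4b 20.9% ± 0.715, Tubb3 9.63% ± 0.730, Tubb5 8.72% ± 0.422, Tubb2b 5.50% ± 0.194 and Tubb6 0.162% ± 0.0288. Summed alpha-tubulin FPKM was 1.62 ± 0.0445 times summed beta-tubulin FPKM, at 1597 ± 185 against 985 ± 94.3 FPKM.

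**Figure D3:**
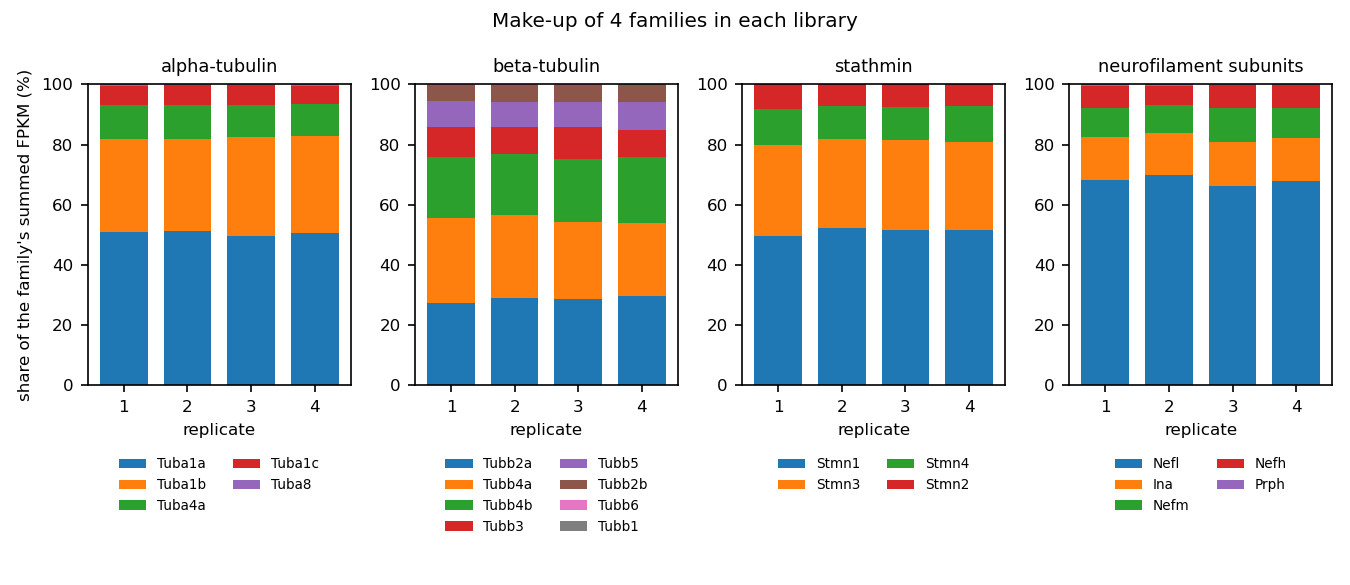
Share of each gene in its family's summed FPKM (%, stacked bars from 0 to 100) in each of 4 libraries, for alpha-tubulins, beta-tubulins, stathmins and neurofilament subunits. Tuba1a stays between 49.7% and 51.4% and Nefl between 66.2% and 70.0%, while Tubb2a and Tubb4a change order between replicate 1 and the other libraries.

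The tubulins of nucleation and centrioles were lower. Tubg2 and Tubg1, the gamma-tubulins that seed microtubules, measured 26.6, 33.6, 23.4 and 29.0 FPKM and 23.2, 24.3, 19.5 and 20.5 FPKM in replicates 1 to 4, with Tubg2 higher in every library. Tube1 and Tubd1, epsilon- and delta-tubulin of the centriole, measured 1.49, 1.62, 0.645 and 1.15 FPKM and 1.11, 0.824, 1.46 and 0.728 FPKM. Their order changed with the library, and neither was called different from 1 FPKM (limma, adjusted p = 0.437 and 0.954).

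Stathmins were among the most abundant transcripts. Stmn1, the founding stathmin, which binds tubulin dimers in many dividing and neural cells, measured 743.4, 1005.3, 845.6 and 1003.2 FPKM, or 899 ± 128 (SD, n = 4), and ranked 42 (chr4:134468320-134473843, GRCm38). Stmn3, a stathmin of neurons, measured 457.3, 571.4, 487.7 and 574.6 FPKM. Stmn4, also neuronal, measured 179.2, 215.5, 182.6 and 235.3 FPKM, and Stmn2, a stathmin of growing axons, 121.7, 137.3, 122.0 and 137.3 FPKM. Replicates 2 and 4 were the higher pair for each of the 4 genes.

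The order from Stmn1 to Stmn3, Stmn4 and Stmn2 held in each library. Stmn1 supplied 51.2% ± 1.14 of summed stathmin FPKM (SD, n = 4), Stmn3 29.8% ± 0.438, Stmn4 11.6% ± 0.489 and Stmn2 7.43% ± 0.485. Summed stathmins, at 1755 ± 221 FPKM, lay near summed alpha-tubulins. A processed copy of Stmn1, Gm11223, matched it at 99.8% over 450 bases and was listed at 45.9 ± 4.85 FPKM, equal to 5.13% ± 0.414 of Stmn1, so both values are uncertain. Smaller values were listed for a processed copy of Tubb4b, Tubb4b-ps1, at 7.33 ± 1.21 FPKM, and for a copy of Map1lc3b, Gm6055, at 4.94 ± 1.03.

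Of the 10 MAP and light chain 3 genes, the light chain 3 pair was highest. Map1lc3a, which marks autophagosomes and was first found bound to MAP1, measured 277.8, 332.8, 311.4 and 322.7 FPKM, and its relative Map1lc3b measured 141.3, 193.0, 140.7 and 148.7 FPKM. Map1lc3a was 2.02 ± 0.224 times Map1lc3b (SD, n = 4), and the groups of values did not overlap. Map4, the MAP of most non-neuronal tissues, measured 135.2, 122.8, 105.0 and 110.9 FPKM, 3.31 ± 0.538 times Mapt, which encodes the axonal protein tau and measured 37.5, 31.4, 37.7 and 37.9 FPKM.

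Map1b, a MAP of growing axons, was the steadiest of the 39 genes, at 38.7, 38.7, 38.0 and 38.2 FPKM, a coefficient of variation of 0.848%. Map1a, its relative in mature neurons, measured 12.1, 7.87, 14.3 and 10.6 FPKM, with replicate 2 lowest. The ratio of Map1b to Map1a was 3.59 ± 0.964. Dclk1, a doublecortin-like kinase, measured 36.5, 25.6, 38.3 and 31.3 FPKM, Map6, which makes microtubules cold-stable, 16.7, 18.9, 21.8 and 18.5, and Map7, a partner of kinesin, 15.0, 10.0, 13.1 and 11.8. Replicate 2 was lowest for Mapt, Dclk1, Map7, Map1a and Dcx, but not for Map1b, Map4, Map6 or Map1lc3b, whose longest transcripts also exceed 4000 bases. Dcx, doublecortin of migrating neuroblasts, measured 1.41, 0.953, 1.001 and 1.54 FPKM and was not called different from 1 FPKM (limma, adjusted p = 0.302).

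Nefl, the light neurofilament subunit on which the others assemble, led the intermediate filaments at 210.4, 237.0, 178.2 and 191.4 FPKM. Ina, alpha-internexin, measured 45.2, 46.9, 39.5 and 41.1 FPKM, Nefm, the medium subunit, 29.4, 31.4, 30.6 and 28.1, and Nefh, the heavy subunit of large axons, 22.7, 21.7, 20.5 and 21.02. The order Nefl, Ina, Nefm, Nefh was the same in every library. Nefl supplied 68.0% ± 1.59 of summed subunit FPKM (SD, n = 4), Ina 14.4% ± 0.377, Nefm 10.0% ± 0.943, Nefh 7.204% ± 0.538 and Prph 0.342% ± 0.127. Nefl was 6.84 ± 0.745 times Nefm and 9.50 ± 0.979 times Nefh.

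Nefl (chr14:68083863-68089095, plus strand, GRCm38) lies within the annotated span of Nefm (chr14:68082590-68124846, minus strand), and 1108 exonic bases overlap, so some reads cannot be assigned between them without strand. Ina likewise overlaps Nt5c2, at 18.5 FPKM, over 456 exonic bases. Prph, peripherin of peripheral neurons, measured 1.44, 1.44, 0.509 and 0.813 FPKM and was not called different from 1 FPKM (limma, adjusted p = 0.973).

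Gfap, the glial filament of astrocytes, measured 128.0, 124.4, 104.8 and 92.2 FPKM. Vim, vimentin, measured 17.7, 18.9, 17.5 and 17.7 FPKM, and Gfap was 6.26 ± 0.861 times as high (SD, n = 4). Nes, nestin of neural progenitors, measured 0.880, 0.654, 0.711 and 0.860 FPKM, under 1 FPKM in each library, but did not pass the test against that level (limma, adjusted p = 0.104).

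Against 1 FPKM, 33 of the 39 genes lay above (limma, 2-sided, adjusted over 25206 genes), 84.6%, while 47.7% of all genes tested did. Below it lay 1 gene, Tubb1, against 40.1% of all genes tested. Tube1, Tubd1, Prph, Nes and Dcx passed in neither direction. The median difference from 1 FPKM on the log2(FPKM + 1) scale was 4.46 over the 39 genes and 0.27 over all genes tested. Of the genes called above, Tubb6 came closest to the threshold (0.36 higher, SE 0.12, adjusted p = 0.0311), and leaving out replicate 1, 2 or 3 ended its call (adjusted p of 0.0856, 0.0806 and 0.0712, in a range of 0.0013 to 0.0856 over 11 alternatives). Rescaling each library to a larger fixed sum raised every value, so the level of 1 then stood for less than 1 FPKM. In that setting 38 of the 39 genes lay above it, as did 13693 of all 25206 genes tested.

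Set against the pan-endothelial median of the same library, 31 of the 39 genes were higher, 79.5%, against 31.5% of all genes tested. Lower were Tubb6, Dcx, Tube1, Tubd1, Prph, Nes and Tubb1, 7 genes, against 60.3% of all genes tested. The median difference was 3.06 for the 39 genes and -1.13 for all genes tested on the log2(FPKM + 1) scale. Stmn1 stood highest, 7.41 ± 0.34 above (SD, n = 4), then Tuba1a at 7.26 ± 0.25 and Stmn3 at 6.63 ± 0.30. Vim, the filament gene also known from endothelium, was 1.85 ± 0.16 above. Tuba8, at 0.26 ± 0.31, was called in neither direction.

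In the 3 comparisons made within a library, all genes share the spread of the gene or list they are compared with, and limma's prior degrees of freedom came out infinite. Its p-values there are unreliable, far smaller than without moderation for many genes and larger for others, such as Tuba4a against Nefl. Those of the planned fit are therefore not printed, and those of other limma settings serve only to show where a call changed. Without moderation, from each gene's own 3 residual degrees of freedom, the calls of the 39 genes against the pan-endothelial median stayed at 31 and 7. Of all genes tested, 29.6% were then called higher and 57.9% lower. Among the 38 of the 39 genes called in this fit, the largest adjusted p was 0.0078, for Map1a.

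**Figure D4:**
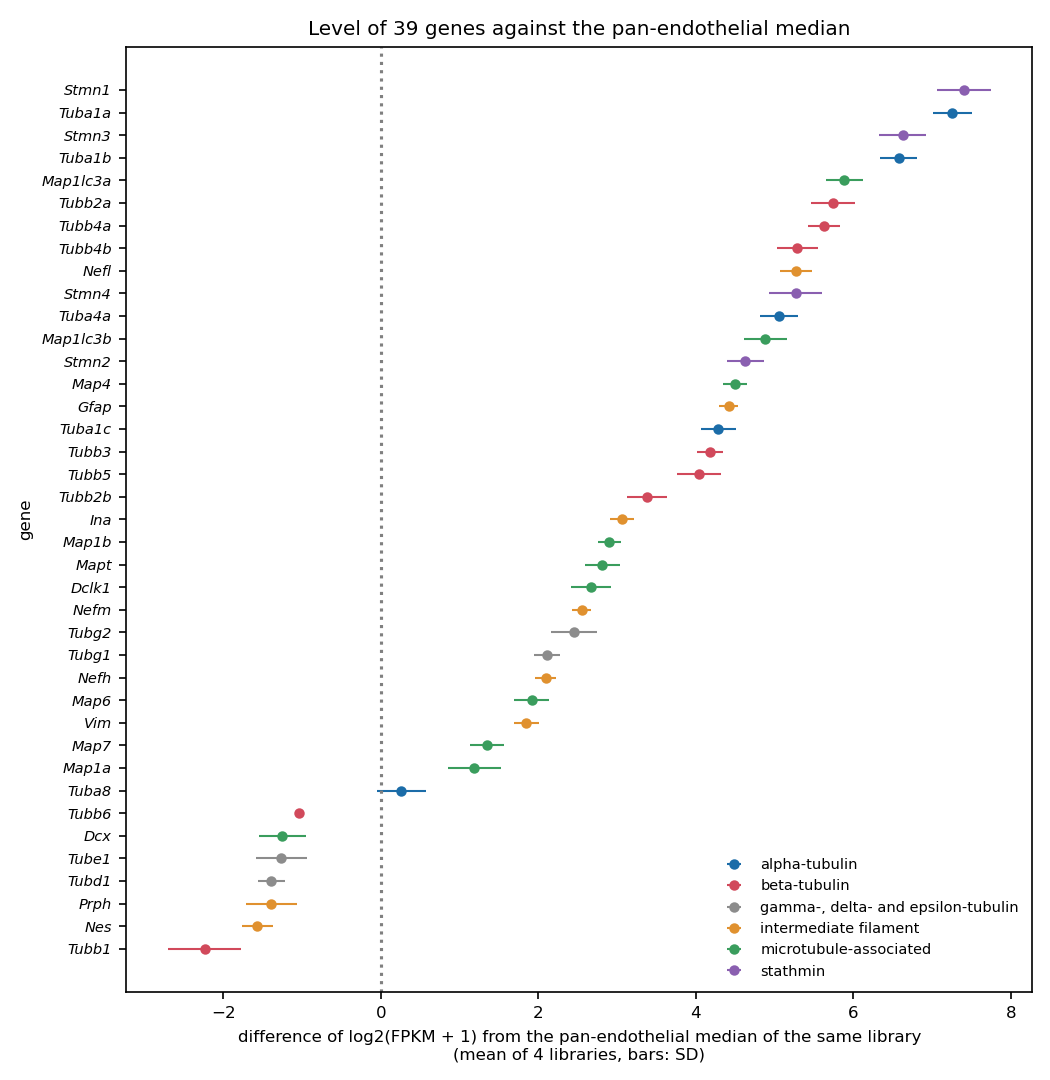
Difference of log2(FPKM + 1) of each of 39 genes from the pan-endothelial median of the same library, as the mean of 4 libraries with bars for the SD. Genes run from Stmn1, 7.41 higher, to Tubb1, 2.24 lower (-2.24), and Tuba8 is the one whose bar reaches 0.

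Compared with Tubb5 in the same library, 16 of 38 genes were higher and 21 lower, while 3.1% of 25205 genes tested were higher and 95.9% lower. All 4 stathmins, 4 alpha-tubulins, Tubb2a, Tubb4a, Tubb4b, Map1lc3a, Map1lc3b, Map4, Nefl and Gfap were the higher ones. Tubb3 differed by 0.14 ± 0.16 on the log2(FPKM + 1) scale (SD, n = 4) and was not called. The call of Gfap, 0.38 ± 0.28 higher, was lost without moderation (adjusted p = 0.0739, the highest of 11 alternatives, the lowest being 1.24e-07). That of Tuba1c, 0.25 ± 0.11 higher, held in limma without moderation (adjusted p = 0.0235). The call of Tuba1c was lost in limma with no mean-variance trend (adjusted p = 0.0613, in a range of 0.00209 to 0.0613). Across the planned and added alternatives the remaining calls against Tubb5 stayed, except that Tubb3 passed without replicate 4 (limma, adjusted p = 0.0472, in a range of 0.0472 to 0.425).

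Against Nefl in the same library, 7 of 38 genes were higher and 29 lower, with 1.02% of all genes tested higher and 98.5% lower. The higher ones were Stmn1, Tuba1a, Stmn3, Tuba1b, Map1lc3a, Tubb2a and Tubb4a, by 2.13 ± 0.24 for Stmn1 and 0.35 ± 0.03 for Tubb4a on the log2(FPKM + 1) scale (SD, n = 4). Tubb4b and Stmn4 differed from Nefl by 0.01 ± 0.16 and -0.01 ± 0.23 and were not called. Tuba4a was 0.22 lower (-0.22 ± 0.06), a call that held in limma without moderation (adjusted p = 0.00612, the lowest of 11 alternatives). In moderated limma the call ended whenever any library was left out (adjusted p of 0.0564 to 0.106) and without the trend (0.115, the highest). Gfap was 0.86 lower (-0.86 ± 0.15).

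Within families, 33 pairs of neighbours in the order of mean level were compared library by library. In 27 pairs the order was the same in all 4 libraries, which gives p = 0.125 in the exact 2-sided sign-flip test, the smallest that 4 libraries allow, and an adjusted p of 0.153 over the 33 pairs. That test cannot reach 0.05 with 4 libraries. The 6 pairs whose order changed were Tubb2a and Tubb4a, Tubb3 and Tubb5, Tube1 and Tubd1, Mapt and Dclk1, Map7 and Map1a, and Prph and Nes. Map1b exceeded Mapt in each library, by a mean of 0.09 ± 0.14 on the log2(FPKM + 1) scale.

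Libraries differed in the levels of short against long transcripts. The longest annotated transcript of the 39 genes ranges from 1060 bases for Stmn1 to 11825 bases for Map1a, and it need not be the length behind the FPKM. Level was lower for longer transcripts across these 39 genes (Spearman's rho -0.43) and across 13599 genes of at least 1 FPKM (rho -0.21), as descriptions over genes that share libraries. For the 37 genes of at least 1 FPKM, the deviation of a library from the gene's mean went up with length in replicate 1 (rho 0.53) and in replicate 3 (rho 0.22), and down with it in replicate 2 (rho -0.50) and replicate 4 (rho -0.26). All genes of at least 1 FPKM gave 0.37, 0.23, -0.29 and -0.30 in the same order. In replicate 2 the median deviation was 0.16 for the 14 genes under 2000 bases and -0.09 for the 10 genes of at least 4000 bases. Over all genes of at least 1 FPKM these medians were 0.04 and -0.12 in that library. Replicate 2 held the highest value of 21 of the 39 genes and replicate 3 the lowest of 18. The same was not counted over all genes, so these counts are not set apart from the libraries as a whole. The part of RNA length or quality in these deviations was not tested.

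**Figure D5:**
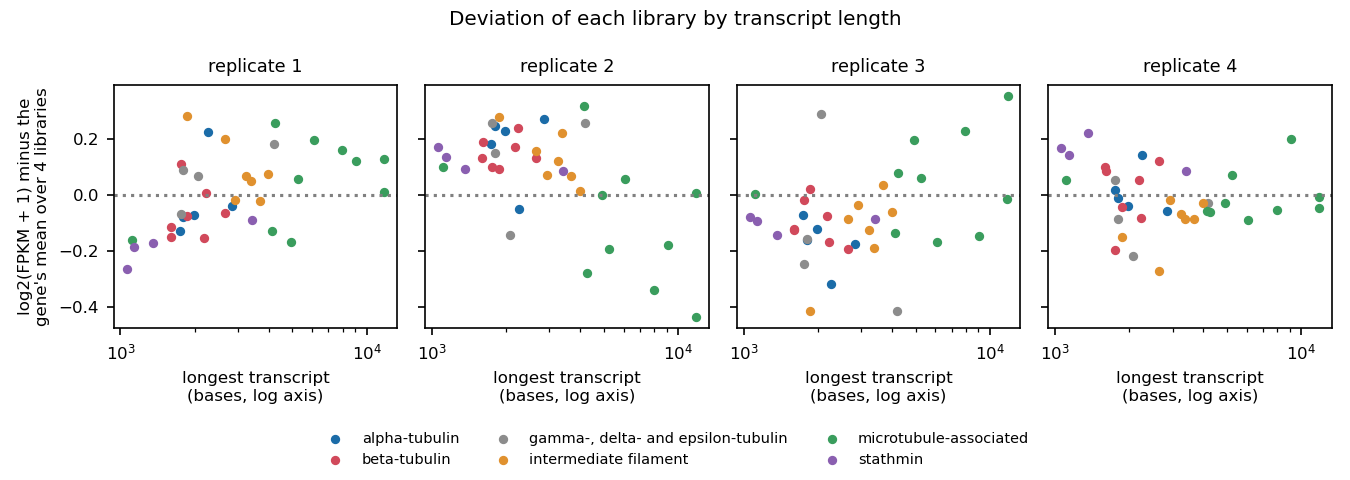
Deviation of each library's log2(FPKM + 1) from the gene's mean over 4 libraries (vertical axis) against the longest annotated transcript in bases (log axis), for the 37 genes averaging 1 FPKM or more, coloured by family. Stmn1, Stmn3 and Stmn4 lie at the left end and Stmn2 near the middle, all 4 below 0 in replicate 1 and above 0 in replicate 2, where long MAP genes lie on either side of 0.

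Genes that fold, modify, nucleate, cut and use microtubules were read from lists of their own. All 21 tubulin-folding genes tested lay above 1 FPKM (limma, adjusted over all genes), as did 47.7% of all genes tested, with a median of 69.4 ± 5.43 FPKM (SD, n = 4), where 1.43 ± 0.108 is the median over all genes tested. Tbca, a cofactor that holds beta-tubulin, measured 137 ± 17.4 FPKM, and Pfdn5, a subunit of the prefoldin that hands tubulin to the CCT chaperonin, 129 ± 12.5. The lowest were Tbcd, a cofactor of the dimer, at 8.06 ± 1.14 FPKM and Tbcel at 7.21 ± 2.10. Of 36 genes for kinesin and dynein transport, 35 lay above (97.2%, against 47.7% of all genes tested) and none below, with a median of 36.4 ± 3.57 FPKM. Dynlrb1 and Dynll1, dynein light chains, measured 317 ± 24.3 and 203 ± 18.9 FPKM, and Klc1, a kinesin light chain, 158 ± 19.4, while Kif21b, at 1.25 ± 0.390 FPKM, passed in neither direction.

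Of 26 modification genes, 16 lay above (61.5%, against 47.7% of all genes tested), 8 below (40.1% of all genes tested) and 2 in neither, with Ttll2 listed at 0. The call of Ttll4, which differed from 1 FPKM by -0.31 on the log2(FPKM + 1) scale, was lost in limma's fit with no moderation (adjusted p = 0.0766). Sirt2, a tubulin deacetylase abundant in oligodendrocytes, measured 71.7 ± 8.95 FPKM (SD, n = 4), and Ttll1 and Tpgs1, parts of a tubulin polyglutamylase, 23.4 ± 2.79 and 32.2 ± 5.69. Ttll7, a polyglutamylase of beta-tubulin, measured 32.4, 12.1, 29.9 and 25.6 FPKM in replicates 1 to 4, lowest in replicate 2. Of 21 genes of nucleation (the gamma-tubulin ring, augmin and partners), 17 lay above (81.0%, against 47.7% of all genes tested) and 1 below (against 40.1%). The gene below was Tpx2, a spindle assembly factor, at 0.354 ± 0.369 FPKM, whose call was lost in limma's fit with no moderation (adjusted p = 0.058). Mzt1, a small ring subunit, led at 69.2 ± 6.02 FPKM.

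Of 24 severing and end-binding genes, 18 lay above (75.0%, against 47.7% of all genes tested) and 4 below (against 40.1%), led by Clip3 at 48.5 ± 5.55 FPKM and by the end-binding genes Mapre2 at 47.1 ± 6.70 and Mapre3 at 44.7 ± 2.45 (SD, n = 4). Kif2c, a mitotic depolymerase, was below at 0.01004 ± 0.0117 FPKM, and Kif2b was listed at 0. Of 25 other MAPs, 21 lay above (84.0%, against 47.7% of all genes tested) and 2 below (against 40.1%), with the light chain 3 relatives Gabarapl1 and Gabarapl2 at 360 ± 33.4 and 225 ± 21.2 FPKM and Tppp, a MAP of oligodendrocytes, at 63.0 ± 13.1. Those below were the mitotic genes Nusap1, at 0.181 ± 0.0860 FPKM, and Gtse1, at 0.115 ± 0.104.

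Other intermediate filament genes were read in 1 list with linkers such as Macf1 and Dst, and all were lower than Nefl, Nefm, Nefh and Gfap. Of 15 tested, 10 lay above 1 FPKM (66.7%, against 47.7% of all genes tested) and 3 below (40.1% of all genes tested). The median of this mixed list was 2.07 ± 0.441 FPKM (SD, n = 4). Synm, synemin, which is 1 of the 10 and differed from 1 FPKM by 0.74 on the log2(FPKM + 1) scale, lost its call in limma's fit with no moderation (adjusted p = 0.0675). Lmna, lamin A and C of the nuclear envelope, measured 14.9 ± 1.86 FPKM and Krt18, a keratin of simple epithelia, 14.7 ± 2.76, while Krt5 and Krt14, keratins of stratified epithelia, were listed at 0.

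Promoter sequences in RefSeq (GRCm38.p6), from 250 bases before to 50 after the start, were matched by symbol for 30 of the 42 genes. TATAAA occurred on either strand in 20.0% of the 30 and in 15.7% of 27025 genes, CCAAT in 46.7% and 41.1%, and GGGCGG in 56.7% and 38.2%. The median number of CG pairs in the window was 17 for the 30 genes and 8 for all. Tuba1a, the highest tubulin, held CCAAT and GGGCGG without TATAAA, and Tubb2a and Tubb4b held TATAAA.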

How the data were processed

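Poly(A) RNA-seq was measured in 4 libraries of 1 group. The authors deposited 1 table of FPKM with 46072 genes, and 0 columns were left out. Per the labels' protocols, RNA came from a Zymo Research kit and libraries from the NEBNext UltraExpress kit with mRNA enrichment and random priming. Per the submitters' processing notes, HISAT2 2.2.1, StringTie 2.2.1, SAMtools and bcl2fastq 2.20 were used with build GRCm38. The sources used here do not give the annotation release, the strand setting or the treatment of reads with several matches. Because FPKM is scaled by length and mapped total, very abundant genes depress the rest. No whole-read steps were found in the low values. A 0 may stand for a failed estimate, and a gene with 0 is called listed at 0.

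The scale was log2(FPKM + 1), whose pseudocount of 1 understates differences of low genes. limma 3.58.1 in R 4.3.3 gave a moderated 2-sided test with a mean-variance trend for 25206 genes above 0 in any library, against 1 FPKM and, within library, against the median of 17 pan-endothelial genes, Tubb5 and Nefl. P-values were adjusted by Benjamini-Hochberg over all genes, with a threshold of 0.05. In the 3 comparisons within library the prior degrees of freedom were infinite, so a fit without moderation (3 residual degrees of freedom) was added after seeing the data. The limma code was run on simulated data with independent noise, which does not test the shared spread of those 3 comparisons. Neighbours in a family were compared by an exact sign-flip test over 16 sign patterns, and shares and ratios have no test.

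Taken for naming were the 42 genes of the rule, up to the 4 highest and 2 lowest genes of each pathway list and up to the 3 highest of each marker list. The symbols of the rule hold only some MAP and filament genes. Map2, at 53.8 ± 12.5 FPKM (SD, n = 4), is not among the 42 and is in the list of other MAPs. Of the lists, Svbp, Map7d3 and Eppk1 were not found in the table under these symbols. The members and lists were chosen with earlier results of these data known, and no test over a list was made. Positions, transcripts and coding sequences were those of GENCODE M21 (GRCm38), where 45223 of the table's genes were found. Near copies were found with BLAST+ 2.17.0 at 95% identity over at least 50% of the shorter transcript, and promoters came from RefSeq. The closing bases of Tuba1a and Tuba1b are not reported here. Alternatives covered pseudocount, filters, scaling, the variance model, the endothelial list and leaving out each library. Those on processed copies were chosen after seeing the data.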

Additional observations from a re-analysis of the deposited data

Results flagged for a closer look

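In 6 of 71 sets of 4 values, 1 library stood apart from the other 3 by Dixon's criterion for 4 samples. Chance flags about 1 in 20 independent groups, but these sets share values, so their number is not compared with that rate. Tubb1, the platelet beta-tubulin, was listed at 0.556 FPKM in replicate 4 and at 0 in the others, so that its share of beta-tubulin FPKM was 0.0553% there and 0 elsewhere. Both sets are flagged whatever value above 0 stands in replicate 4, since the other 3 values are 0. Map1lc3b measured 193 FPKM in replicate 2, against 140.7 to 148.7 FPKM in the others. Mapt measured 31.4 FPKM in replicate 2, against 37.5 to 37.9 FPKM, and Vim 18.9 FPKM in replicate 2, against 17.5 to 17.7 FPKM. Ina held 13.9% of neurofilament subunit FPKM in replicate 2, against 14.5% to 14.6% in the others. Of the 6 values, 4 belong to replicate 2 and 2 to replicate 4.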

How the results depend on the processing

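No pairing of samples between groups was possible because the series has 1 group. Of 1772 values for single genes, 1739 kept their direction and side of the threshold, 15 reversed, 8 came to pass and 10 no longer passed. Filters changed how many genes were tested: genes below 1 FPKM numbered 5197 at a mean of 0.1 FPKM or more and 30135 with no filter, those below the pan-endothelial median 10122 and 36206, and with no filter 45036 lay below Tubb5 and 45706 below Nefl. Members below 1 FPKM numbered 4 with no filter, which adds the 3 listed at 0, and 2 with no trend or with no moderation, which adds Nes. With libraries scaled to a larger fixed sum, the level of 1 stood for less than 1 FPKM. Nes then turned to 0.41 above that level (limma, adjusted p = 0.0399, in a range of 0.0262 to 0.27). Dcx, Tube1, Tubd1 and Prph also passed above it. Near 1 FPKM, Prph turned to -0.0383 and -0.0537 and Tubd1 to -0.0047 and -0.0093 with pseudocounts of 0.1 and 0.01. With 1 library left out, Prph ranged over -0.0877 to 0.1434, Tubd1 over -0.0887 to 0.0812, Stmn4 against Nefl over -0.1111 to 0.0647, Tubb4b against Nefl over -0.0497 to 0.0677, and Tube1 over Tubd1 from -0.0081 to 0.3602. Tuba8 turned to -0.27 against the mean of the endothelial list and -0.0905 against its genes of at least 1 FPKM, and passed above its median without replicate 3 (0.39, adjusted p = 0.0381, in a range of 0.0381 to 0.593). With processed copies, the share of Stmn1 was 52.4%, that of Stmn3 29.1%, the ratio of alpha- to beta-tubulin 1.72 and the share of tyrosine-ending genes 89.4%. Without mitochondrial genes the members held 1.33% of summed FPKM, against 1.19% ± 0.113 with them. The cause was not tested for the other changes. Depth is unknown, so what it limits could not be computed.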

Other observations

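The 42 genes held 1.19% ± 0.113 of all summed FPKM (SD, n = 4). Alpha-tubulins made up 0.343% ± 0.0425 of it, beta-tubulins 0.212% ± 0.0211 and stathmins 0.377% ± 0.0416. Replicate 2 had the highest share for each of these families. Of the choroid plexus and ependymal markers, Ttr, Kcnj13 and Folr1 had their lowest values in that library, where the list's median was lowest too, at 17.7 FPKM. Ttr, transthyretin, measured 13933, 11398, 15859 and 16782 FPKM in replicates 1 to 4. Kcnj13, a potassium channel of the choroid plexus epithelium, measured 171, 145, 198 and 208 FPKM. Hbb-bs, a beta-globin gene, was highest in replicate 2 like summed alpha- and beta-tubulin FPKM and measured 481, 659, 397 and 476 FPKM. These values are given side by side as measured, and their relation was not tested.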
